A study of Ovis aries with 30 samples.

Results

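The response of sheep epicardial adipose tissue (EAT) to raised maternal cortisol was compared between 2-week-old lambs and term fetuses. The quantity described is the cortisol effect in lambs minus the cortisol effect in fetuses, that is, the CORT lamb minus Control lamb difference less the CORT fetus minus Control fetus difference, with each effect in log2 intensity. All 30 of the 30 arrays of the series entered it: 8 Control fetuses, 6 CORT fetuses, 7 Control lambs and 9 CORT lambs, each array holding the RNA of 1 animal. Ewes of the CORT fetuses received 1 mg/kg/day cortisol and ewes of the CORT lambs 0.5 mg/kg/day, in both cases from gestational day 115 until term, and ewes of the Control groups received none. The infusion was given to the ewe and not to the offspring, so that the lambs were sampled 2 weeks after their exposure had ended at birth and the fetuses at term. Per the study's methods, the ewes of the lambs were infused overnight under a timer and were black-faced. The breed and infusion schedule for the ewes of these fetuses were not stated in the sources used here. The study describes its earlier model at 1 mg/kg/day, the labelled dose of the CORT fetuses, as a continuous infusion. The submitters caution in their labels that the cortisol groups of both ages cannot be compared directly because the doses differ. Age, dose, slide and any difference in infusion schedule cannot be told apart in the difference between ages. The fetuses lay on slides 1 and 2 and the lambs on slides 3 and 4. Both treatments lay on every slide. The study describes 1 set of twins in each lamb treatment, and the labels do not say which lambs shared a ewe, so p-values treat the lambs as independent.

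Cortisol acts mainly through the glucocorticoid receptor, a nuclear receptor that enters the nucleus on binding its ligand and raises or lowers transcription of target genes, and through the mineralocorticoid receptor. Enzymes within the cell set how much active hormone reaches them: 11-beta-hydroxysteroid dehydrogenase type 1 regenerates cortisol from cortisone, and type 2 inactivates it. EAT lies between the heart muscle and the visceral pericardium and supplies the heart with fatty acids, adipokines and cytokines. In the newborn lamb this type of depot is rich in brown adipocytes, which make heat through the uncoupling protein UCP1, and it turns towards lipid-storing white fat after birth. Cortisol rises in the fetus before birth and is known to take part in the maturation of fat, lung, liver and gut.

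After the filter on dim probes, 13096 of 15008 sheep probes were tested, and 1382 of these carried a gene name for 886 genes; the other probes are given by their array identifier. The adipocyte genes FABP4, PLIN1, LPL, LEP, PPARG and UCP1 had probes well above background on all 30 arrays. UCP1 was between 13.75 and 15.56 in fetuses and between 8.52 and 12.71 in lambs (log2 intensity). Median foreground signal per array was 132 to 240 over a background of 34 to 46, and arrays of one group correlated at 0.957 to 0.993 across probes. Markers of striated muscle, red cells and liver varied widely within groups. The tissue is a mixture of cells, and in it fewer cells of a type and less RNA per cell cannot be told apart.

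For no transcript did the difference in cortisol effect between the ages pass after Benjamini-Hochberg adjustment over all 13096 probes (limma; smallest adjusted p = 1). At an unadjusted p under 0.05, the threshold the study itself used, the effect was higher in lambs than in fetuses for 147 probes (1.12% of those tested) and lower for 127 (0.970%). Together these are 274 probes, or 2.09%, fewer than the 5% that the threshold alone would pass if no probe differed. Among the 886 named genes, 7 lay higher and 10 lower, or 1.92%. The median size of the difference was 0.08, its 95th percentile 0.33 and its median standard error 0.13 (log2). The median size of the effect itself was 0.06 in lambs and 0.05 in fetuses. Similar responses at the ages and a lack of precision therefore cannot be told apart. When each array was scaled to its 75th percentile instead, the split was 105 higher and 177 lower. Within each age, the lamb comparison passed 317 probes upwards (2.42%) and 301 downwards (2.30%), 4.72% in all and 239 against 377 under the 75th percentile scaling, and the fetal comparison passed 113 (0.863%) and 122 (0.932%), 1.79% in all, again with none past the adjusted threshold.

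Transcripts were then sorted by whether cortisol moved them the same way at both ages. Of all probes tested, 6211 (47.4%) had effects of opposite sign and 6885 of the same sign. Of the 618 probes past unadjusted p 0.05 in lambs, 263 (42.6%) had the opposite sign in fetuses, and of the 235 past it in fetuses, 95 (40.4%) had the opposite sign in lambs. Only 15 probes passed it at both ages, which is 2.43% of the lamb probes, against a background of 1.79% of all probes in fetuses, and 6.38% of the fetal probes, against 4.72% of all probes in lambs. Of those 15 probes, 13 had the same direction, with 6 up and 7 down, and 2 were opposite. Both opposite probes were up in lambs and down in fetuses. Among the 274 probes whose effect differed between ages, 265 (96.7%) had opposite signs, a share that the choice on the difference largely fixes. Of the 147 higher in lambs, 68 passed in lambs only, 29 in fetuses only, 2 at both ages and 48 at neither; of the 127 lower in lambs, 51 passed in lambs only, 25 in fetuses only and 51 at neither.

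**Figure D1:**
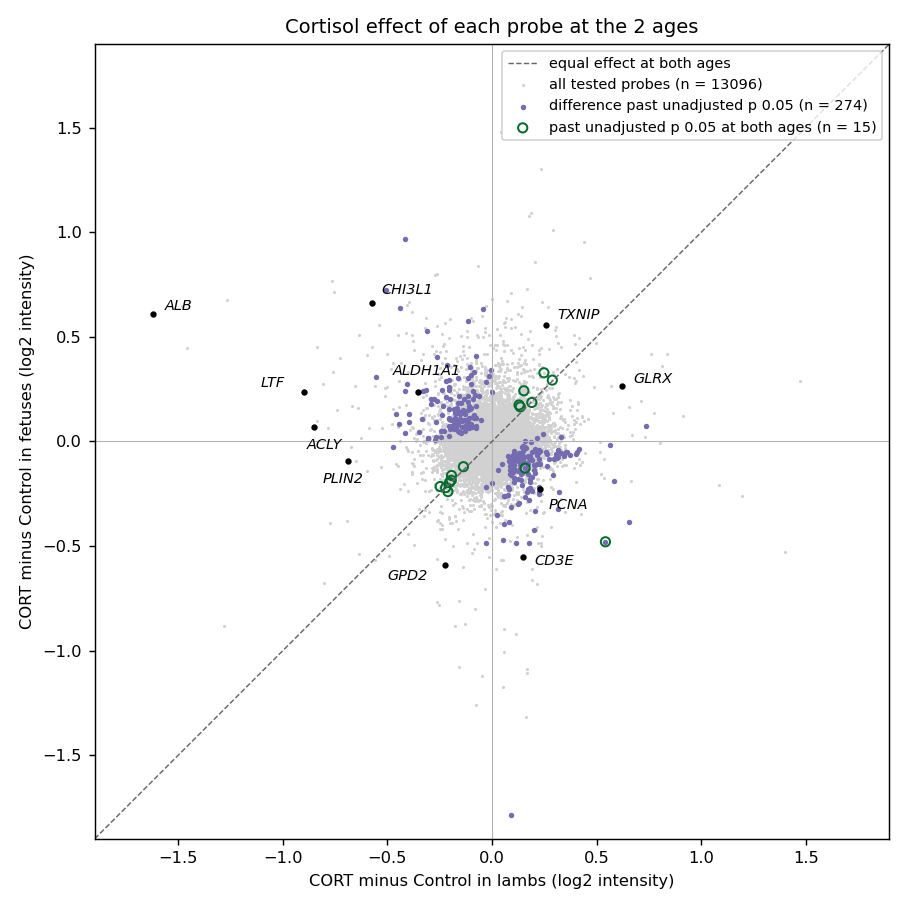
Cortisol effect of each tested probe in lambs (horizontal axis) against fetuses (vertical axis), as CORT minus Control in log2 intensity. Grey points are all 13096 probes, purple points the 274 whose effect differed between ages at an unadjusted p under 0.05, green rings the 15 past that threshold at each age, and the dashed line marks equal effects. Purple points lie mainly in the upper left and lower right quadrants, and 13 of the 15 rings lie close to the dashed line.

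Probe sequences are given for the transcripts on which the opposite and equal responses turn, chosen after their values were seen. Each is the 60-base probe as the array design lists it, 5′ to 3′, with no part marked; the position of these probes in the sheep genome was not determined here. The first is named as lactotransferrin, and the other 4 carry no gene name in the tables used.
LTF, lower in CORT lambs: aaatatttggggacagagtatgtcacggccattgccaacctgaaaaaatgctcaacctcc
A_70_P006361, opposite at the ages: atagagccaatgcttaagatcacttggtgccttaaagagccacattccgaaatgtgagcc
A_70_P009606, lower in CORT lambs: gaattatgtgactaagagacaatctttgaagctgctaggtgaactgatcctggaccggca
A_70_P022566, down at both ages: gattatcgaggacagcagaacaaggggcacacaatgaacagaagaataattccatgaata
A_70_P022816, up at both ages: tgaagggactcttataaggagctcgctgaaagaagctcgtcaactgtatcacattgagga

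A_70_P006361 was the probe past unadjusted p 0.05 at each age with effects of opposite sign and a signal well above background on every array. Its log2 intensity was 7.82, 8.20 and 8.43 (lowest, median and highest) in Control fetuses, 7.59, 7.68 and 7.82 in CORT fetuses, 7.56, 8.08 and 8.80 in Control lambs and 7.93, 8.82 and 9.30 in CORT lambs. In fetuses every CORT animal lay at or below the lowest Control to 2 decimals, and in lambs 8 of 9 CORT animals lay above the Control mean although the ranges overlapped. The effect was 0.54 in lambs and -0.48 in fetuses, a difference of 1.02 ± 0.23 (SE; 95% interval 0.56 to 1.49; limma, unadjusted p = 0.000101, adjusted p = 1). The exact permutation p for the difference was 0.000141. The other opposite probe, one of those for EGR1, an immediate early transcription factor, was not well above background on any fetal or Control lamb array and on 3 of 9 CORT lamb arrays, so no size is given for it. A brighter EGR1 probe had a difference of -0.13, the other way.

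A_70_P009606 had the smallest p of all probes in lambs and no like effect in fetuses. It was 7.04, 7.39 and 7.72 in Control lambs against 6.68, 7.00 and 7.24 in CORT lambs. None of the 9 CORT lambs exceeded the Control mean, and the ranges overlapped narrowly. In fetuses the level was 6.50 to 6.86 in Controls and 6.66 to 6.82 in CORT animals, the latter wholly within the former. The effect was -0.42 in lambs (limma, unadjusted p = 3.1e-05, adjusted p = 0.254) and 0.04 in fetuses, a difference of -0.45 ± 0.12 (SE; unadjusted p = 0.00097).

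Among named genes, the effects that were lower in lambs than in fetuses were led by LTF and ALDH1A1. LTF encodes lactotransferrin, an iron-binding protein of neutrophil granules and secretions. Its level was 8.53, 8.99 and 9.48 in Control lambs and 7.31, 8.14 and 8.70 in CORT lambs, and 6.73, 7.55 and 7.98 in Control fetuses and 7.15, 7.73 and 7.80 in CORT fetuses. Every one of the 9 CORT lambs was under the Control lamb mean, whereas the fetal CORT range lay inside that of the Controls, with 5 of 6 above their mean. The effect was -0.90 in lambs and 0.23 in fetuses, a difference of -1.13 ± 0.28 (SE; 95% interval -1.70 to -0.57; limma, unadjusted p = 0.000301, adjusted p = 1; exact permutation p = 0.00103), or a ratio of 0.455. Within slides it was -1.31 and -0.50 in lambs and 0.61 and -0.14 in fetuses, so that the fetal effect had no fixed sign, and with slide as a block the difference was -1.15. Of the other neutrophil granule genes measured, BAC5 had a difference of 0.22 with a wide 95% interval of -1.43 to 1.87, SC5 0.01 ± 0.40 (SE) and LYZ 0.01 ± 0.32 (SE), while CATHL3 and CATHL1B were near background and are given no size. The summed level of 4 neutrophil markers with a probe, of which LTF is one, ran from 8.84 to 10.79 in CORT lambs and 9.26 to 9.93 in Control lambs, and from 9.42 to 12.23 and 8.78 to 12.16 in the CORT and Control fetuses, and its part in the LTF result was not tested. LTF, like ALDH1A1, HK1, SOD2, ACLY, PLIN2, KDR and FLT1, is among the genes the study picked on these lambs, so its lamb effect is not independent evidence.

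ALDH1A1, an aldehyde dehydrogenase that makes retinoic acid from retinal, had group effects of opposite sign in lambs and fetuses. It was 12.23, 12.62 and 13.05 in Control fetuses and 12.69, 12.90 and 13.10 in CORT fetuses, against 13.39, 13.97 and 14.29 in Control lambs and 13.36, 13.53 and 13.83 in CORT lambs. All 6 CORT fetuses were above their Control mean and all 9 CORT lambs below theirs, with overlapping ranges at both ages. The difference was -0.59 ± 0.16 (SE; 95% interval -0.92 to -0.26; limma, unadjusted p = 0.00103, adjusted p = 1; exact permutation p = 0.00132), made of -0.35 in lambs and 0.24 in fetuses. It had the same signs within each slide, at 0.31 and 0.17 in fetuses and -0.46 and -0.24 in lambs.

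Both HK1 and ME1, enzymes at the head of glucose use and in the supply of NADPH for fatty acid synthesis, were lower in CORT than Control lambs and not in fetuses. HK1, hexokinase, was 10.65, 10.80 and 11.08 in Control lambs and 10.12, 10.55 and 11.06 in CORT lambs, and 10.07, 10.41 and 10.73 in Control fetuses and 10.34, 10.61 and 10.82 in CORT fetuses. Only 1 of 9 CORT lambs, but 5 of 6 CORT fetuses, exceeded its Control mean. The difference was -0.45 ± 0.17 (SE; 95% interval -0.79 to -0.11; limma, unadjusted p = 0.0104; exact permutation p = 0.0112), with -0.26 in lambs and 0.19 in fetuses, and 0.19 on each fetal slide and -0.17 and -0.31 on the lamb slides. ME1, malic enzyme, was 7.73 to 8.31 in Control lambs and 6.88 to 8.16 in CORT lambs, and 9.04 to 9.46 and 8.96 to 9.61 in Control and CORT fetuses. Its difference was -0.44 ± 0.19 (SE; unadjusted p = 0.0297; -0.33 in lambs and 0.11 in fetuses).

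In IGF2R and C5aR the larger part of the difference came from the fetuses. IGF2R, the receptor that clears insulin-like growth factor 2 and sorts lysosomal enzymes, was 8.39, 8.51 and 8.79 in Control fetuses and 8.50, 8.84 and 9.29 in CORT fetuses, with 8.29, 8.42 and 8.83 in Control lambs and 8.19, 8.28 and 8.70 in CORT lambs. Ranges overlapped at both ages, and 5 of 6 CORT fetuses lay above the Control mean. The fetal effect was 0.27 and the lamb effect -0.10, a difference of -0.37 ± 0.15 (SE; limma, unadjusted p = 0.0183; exact permutation p = 0.0216). Its other probes gave -0.29 and, for the dimmest, -0.04. C5aR, the receptor of complement fragment C5a on myeloid cells, had 0.37 in fetuses and -0.21 in lambs (difference -0.58 ± 0.28, SE; limma, unadjusted p = 0.0494), and a further probe gave -0.50. Its effects within the lamb slides were -0.68 and 0.30, of unlike sign.

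CHI3L1, a chitinase-like protein secreted by macrophages and stromal cells, had the largest difference in size among the named genes past the unadjusted threshold, at -1.23 ± 0.59 (SE; 95% interval -2.45 to -0.02; limma, unadjusted p = 0.0469; exact permutation p = 0.053). It was 0.66 in fetuses and -0.57 in lambs, neither past the threshold by itself, and its 4 groups spanned 8.77 to 12.46 with overlapping ranges. The call was lost in 15 of 30 fits that each left out 1 animal. Smaller differences were those of SLC66A2, a membrane protein of the PQ-loop family, at -0.29 ± 0.11 (SE; unadjusted p = 0.0139), and NPPC, the precursor of C-type natriuretic peptide, at -0.39 ± 0.16 (SE; unadjusted p = 0.0193). Over the processing alternatives SLC66A2 lay between -0.75 and -0.22 and NPPC between -1.08 and -0.28. NPPC was near background, being well above it on 5 of 9 CORT lamb arrays, and without Control lamb 1 its difference was -0.25. PON2, a paraoxonase, was the tenth named gene on this side with -0.43 ± 0.21 (SE; unadjusted p = 0.0533), which is not past the threshold.

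**Figure D2:**
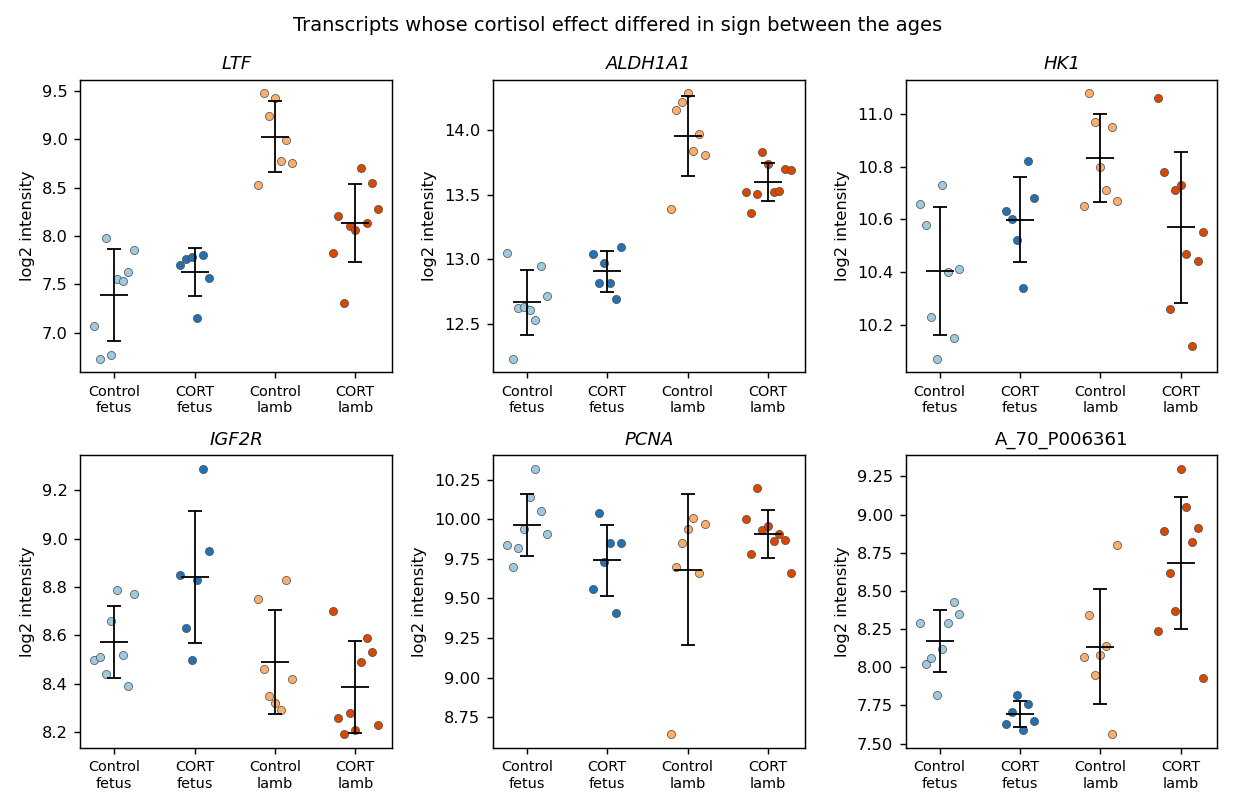
Log2 intensity of LTF, ALDH1A1, HK1, IGF2R, PCNA and the unnamed probe A_70_P006361 in each animal, by group, with black bars for mean ± SD. CORT animals lie mainly lower than Controls in lambs and higher in fetuses for the first 4, and the other way for the last 2; the groups overlap in most panels.

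The effects that were higher in lambs than in fetuses were small, and PCNA had the largest of those past the unadjusted threshold among named genes. PCNA, the sliding clamp of DNA replication, was 9.70, 9.93 and 10.32 in Control fetuses and 9.41, 9.79 and 10.04 in CORT fetuses, and 8.64, 9.85 and 10.01 in Control lambs and 9.66, 9.91 and 10.20 in CORT lambs. Of the CORT animals, 8 of 9 lambs and 1 of 6 fetuses lay above their Control mean. The difference was 0.45 ± 0.20 (SE; 95% interval 0.04 to 0.86; limma, unadjusted p = 0.0323; exact permutation p = 0.0187), with 0.23 in lambs and -0.23 in fetuses. It leaned on Control lamb 1, the lowest animal, without which it was 0.28; a dimmer PCNA probe gave 0.23. MET, the receptor of hepatocyte growth factor, had 0.29 ± 0.13 (SE; unadjusted p = 0.0352), made of 0.08 in lambs and -0.22 in fetuses. In fetuses 1 of 6 CORT animals lay above the Control mean of a range from 7.28 to 8.03. Without Control fetus 2, which was the highest at 8.03, the MET difference was 0.23.

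The remaining named genes past the threshold on this side with signals above background included proteins of the cytosolic ribosome and a keratin. RPL4 was 16.35, 16.40 and 16.52 in Control fetuses and 16.05, 16.27 and 16.47 in CORT fetuses, and 15.68, 16.13 and 16.30 in Control lambs and 15.96, 16.20 and 16.33 in CORT lambs. The difference was 0.25 ± 0.10 (SE; limma, unadjusted p = 0.0243; exact permutation p = 0.0139), while its 2 other probes gave 0.05 and 0.10. RPL34 had 0.15 ± 0.07 (SE; unadjusted p = 0.0351). These ribosomal probes are among the brightest of the array, and under cyclic loess normalization the differences were -0.06 for RPL34 and 0.08 for RPL4. The keratin gene, V15 on this array, had 0.27 ± 0.13 (SE; unadjusted p = 0.0479) at a level near background, and its other probe gave -0.03. One further gene on each side passed at a level near background, LEF1 upwards, a transcription factor of lymphocytes and Wnt signalling, and GRIA1 downwards, a glutamate receptor subunit. No size is given for them, since LEF1 was not well above background on any Control lamb array and GRIA1 on any CORT fetus array. Next in order, and not past the threshold, came EP4C at 0.25, SFTPA1 at 0.23, CD3E at 0.71 and CD1D at 0.26, with unadjusted p between 0.0579 and 0.0681 by limma.

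**Figure D3:**
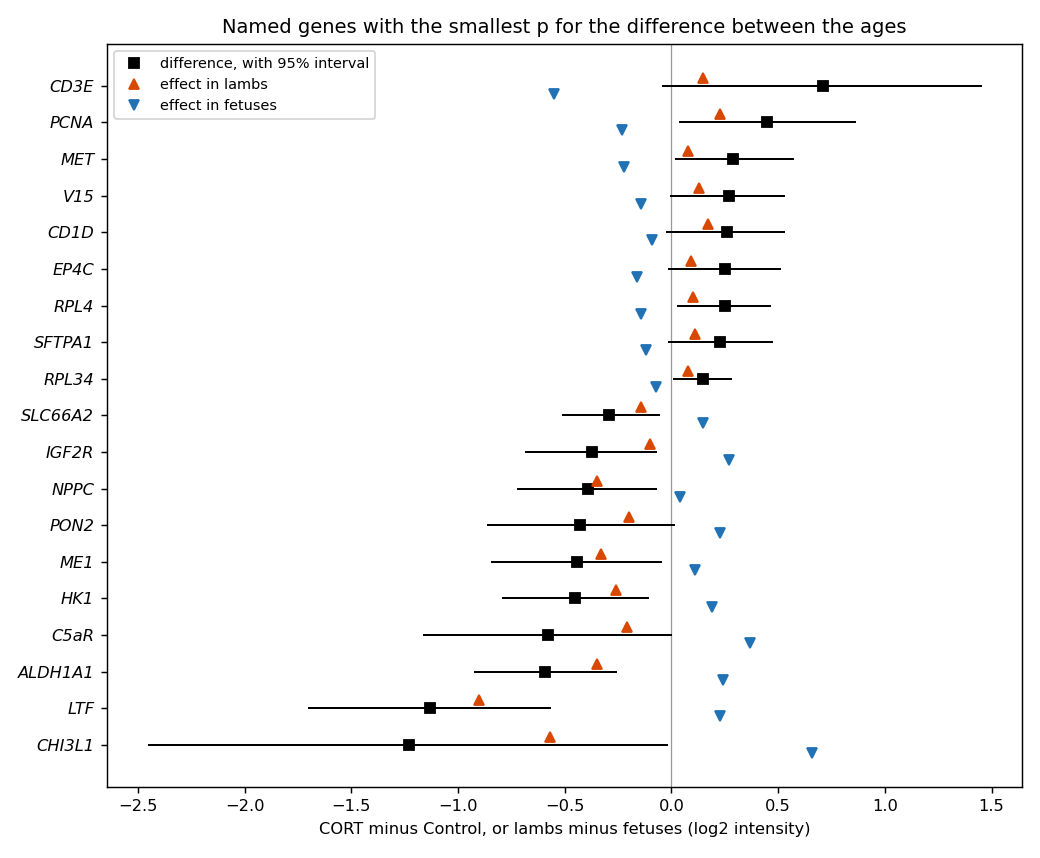
Cortisol effect in lambs minus in fetuses for the named genes of smallest p on either side, as black squares with 95% intervals in log2 intensity. Triangles give the effect in lambs (orange, pointing up) and in fetuses (blue, pointing down); for all genes shown they lie on either side of 0, and LTF and CHI3L1 lie farthest from 0.

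Equal responses were described by the average of the lamb and fetal effects together with the interval of their difference. The average passed at an unadjusted p under 0.05 for 209 probes upwards (1.60%) and 263 downwards (2.01%), 3.60% in all and none after adjustment, and 7 of these 472 had opposite signs at the 2 ages, a share that the choice on the average largely fixes. SLIRP, a protein that binds and stabilises mitochondrial messenger RNA, was the one named gene past the threshold at each age in the same direction. It was 13.81, 13.97 and 14.17 in Control fetuses and 13.63, 13.80 and 14.01 in CORT fetuses, and 13.30, 13.47 and 13.70 in Control lambs and 13.01, 13.33 and 13.76 in CORT lambs. The ranges overlapped at both ages, with 7 of 9 CORT lambs and 5 of 6 CORT fetuses below the Control mean. The effect was -0.20 at each age (limma, unadjusted p = 0.0292 in lambs and 0.0479 in fetuses). Its 95% interval was -0.38 to -0.02 in lambs and -0.39 to 0 in fetuses. The difference of -0.01 had a 95% interval from -0.27 to 0.26, which still leaves room for effects of unlike size. On the lamb slides the effect was 0.05 and -0.43, so that the lamb value came from slide 4.

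The 5 named genes of smallest p lower with cortisol on average were GPD2, DOHH, EEF1E1, SLIRP and COX15. GPD2, the mitochondrial glycerol-3-phosphate dehydrogenase, was 7.90, 8.80 and 9.19 in Control fetuses and 7.74, 7.98 and 8.71 in CORT fetuses, and 6.94, 7.20 and 7.43 in Control lambs and 6.35, 7.03 and 7.24 in CORT lambs. At each age all CORT animals but 1 lay below their Control mean, and the groups overlapped. The average effect was -0.41 ± 0.11 (SE; limma, unadjusted p = 0.00109), with -0.59 in fetuses and -0.23 in lambs (difference 0.37, 95% interval -0.09 to 0.83). DOHH, which completes the hypusine residue of the translation factor eIF5A, was 10.04 to 10.13 in Control lambs and 9.66 to 10.06 in CORT lambs, with an average effect of -0.17 ± 0.05 (SE; unadjusted p = 0.00334) and no CORT lamb above the Control mean. COX15, needed to make the haem of cytochrome c oxidase, had -0.24 in fetuses, where none of the CORT animals exceeded the Control mean, and -0.05 in lambs (difference 0.19, 95% interval -0.02 to 0.41). EEF1E1, a scaffold protein of the aminoacyl-tRNA synthetase complex, had -0.24 in fetuses and -0.17 in lambs, but its other probe gave -0.25 and 0.01.

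Genes higher with cortisol on average were led by FLT3LG, the growth factor of dendritic cell and lymphoid precursors. It was 9.59, 9.76 and 9.96 in Control fetuses and 9.82, 9.98 and 10.13 in CORT fetuses, and 9.93, 10.24 and 10.59 in Control lambs and 9.98, 10.50 and 11.03 in CORT lambs. All 6 CORT fetuses and 7 of 9 CORT lambs lay above their Control mean. The average effect was 0.24 ± 0.08 (SE; limma, unadjusted p = 0.00614), with 0.28 in lambs and 0.20 in fetuses (difference 0.08, 95% interval -0.25 to 0.41), and a further probe gave 0.29 and 0.21. TXNIP, a glucose-responsive inhibitor of thioredoxin, had 0.56 in fetuses and 0.26 in lambs (average 0.41 ± 0.15, SE; limma, unadjusted p = 0.0108). Its difference was -0.30 (95% interval -0.91 to 0.32), and its effects within the fetal slides were 0.19 and 0.93. Only CORT fetuses 1 and 5, at 15.14 and 15.24, exceeded the highest Control fetus, at 14.65. PYGL, a glycogen phosphorylase, had 0.55 in fetuses and 0.30 in lambs (average 0.42, limma, unadjusted p = 0.0187). The PYGL difference was -0.24 (95% interval -0.94 to 0.46). Both GLRX, glutaredoxin, with 0.62 in lambs and 0.26 in fetuses, and the endothelial adhesion molecule PECAM1, with 0.35 and 0.11, completed the 5, and their differences between ages were 0.36 (95% interval -0.42 to 1.14) and 0.24 (95% interval -0.16 to 0.64). In fetuses GLRX did not move as one: 3 of 6 CORT animals lay above the Control mean, CORT fetus 6 at 9.59 stood apart from the next at 8.22, and the within-slide effects were -0.20 and 0.73.

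Among unnamed probes with equal responses, A_70_P022566 had the clearest values. It was 7.93, 8.21 and 8.40 in Control fetuses and 7.71, 7.95 and 8.18 in CORT fetuses, and 7.20, 7.31 and 7.5 in Control lambs and 7.03, 7.06 and 7.38 in CORT lambs. All 6 CORT fetuses and 8 of 9 CORT lambs were below their Control mean. The effects were -0.24 and -0.21, with a difference of 0.03 (95% interval -0.18 to 0.24). A_70_P022816 was its counterpart upwards, at 8.10 to 8.48 in CORT against 7.66 to 8.25 in Control fetuses and 8.16 to 8.78 in CORT against 7.82 to 8.61 in Control lambs. Its effects were 0.33 in fetuses and 0.25 in lambs, and the difference was -0.08 (95% interval -0.38 to 0.22).

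**Figure D4:**
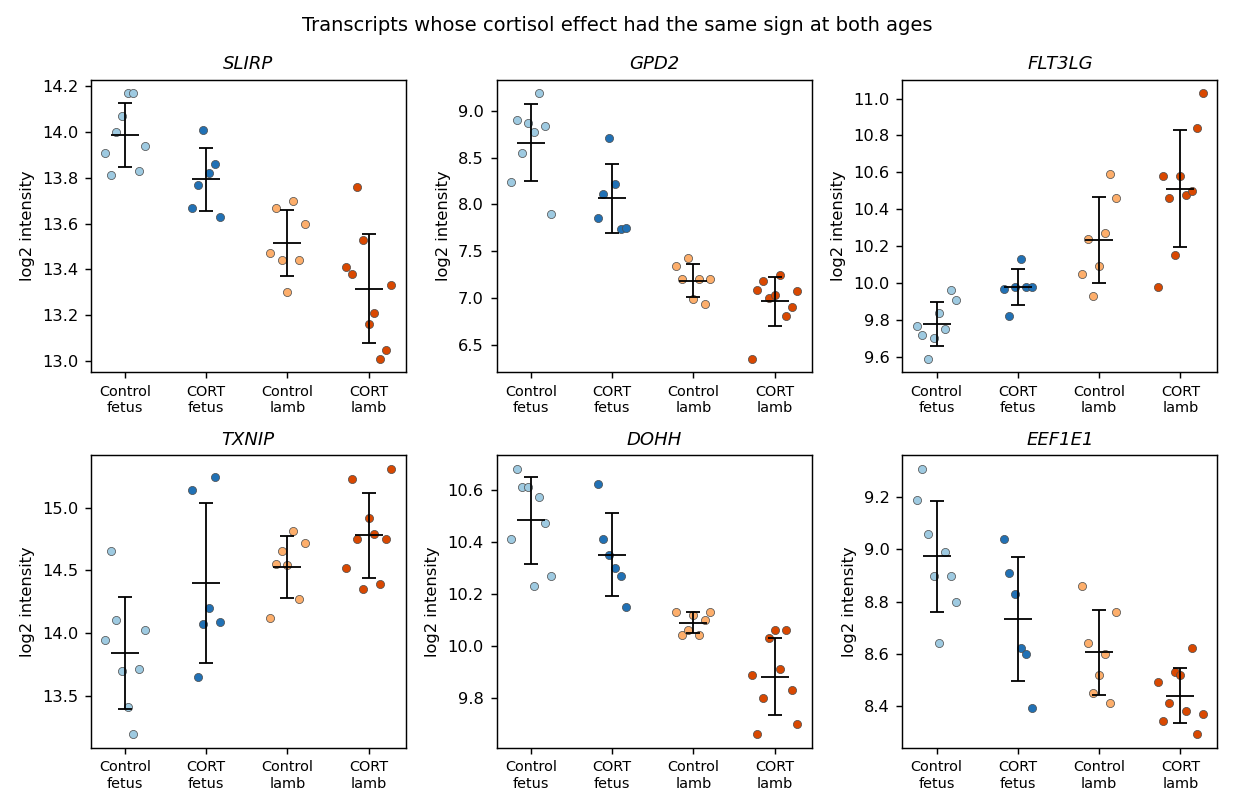
Log2 intensity of SLIRP, GPD2, FLT3LG, TXNIP, DOHH and EEF1E1 in each animal, by group, with black bars for mean ± SD. CORT animals lie lower than Controls at both ages for SLIRP, GPD2, DOHH and EEF1E1 and higher for FLT3LG and TXNIP, with overlapping ranges.

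The list of the glucocorticoid receptor and cortisol metabolism had 9 genes measured, which include genes of hormone production and its control. CRHR1 among them was near background. By the probe used for each gene, none was past the unadjusted threshold for the difference between ages, in either direction. A second, dimmer probe of POMC, the precursor of adrenocorticotropic hormone, was past it, at 0.40 (unadjusted p = 0.0303 by limma), with 0.09 in lambs and -0.31 in fetuses. NR3C1, the glucocorticoid receptor, was 9.48, 9.66 and 9.86 in Control fetuses and 9.41, 9.60 and 9.78 in CORT fetuses, and 10.32, 10.63 and 10.68 in Control lambs and 9.94, 10.46 and 10.76 in CORT lambs. Its difference of -0.05 (95% interval -0.32 to 0.22) had a different sign with the replicate number as a block. NR3C2, the mineralocorticoid receptor, had -0.20 in lambs and 0.18 in fetuses (difference -0.38, 95% interval -0.84 to 0.08). HSD11B1, which regenerates cortisol, had -0.25 and 0.32 (difference -0.57, 95% interval -1.30 to 0.16), and HSD11B2, which inactivates it, -0.25 and -0.01 (difference -0.25, 95% interval -0.94 to 0.44; -0.06 without CORT fetus 3). Of the 3 genes listed as glucocorticoid-responsive with a probe, NFKBIA, an inhibitor of NF-kappa-B, was 0.23 at each age and CPT1A -0.24 in lambs and -0.40 in fetuses. PCK1, the enzyme that starts gluconeogenesis and glyceroneogenesis, was 0.03 in lambs and 0.01 in fetuses with one probe and 0.24 and -0.18 with its other.

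Of 26 genes chosen for their role in perinatal fat and cortisol action, 14 were measured, and LTF alone was past unadjusted p 0.05 for the difference. In ACLY, which makes the acetyl-CoA for fatty acid synthesis, the effect was -0.85 in lambs and 0.07 in fetuses (difference -0.92, 95% interval -2.04 to 0.20). PLIN2, a lipid droplet coat protein, had -0.69 and -0.10, and SOD2, the mitochondrial superoxide dismutase, -0.40 and -0.05. For these 3 genes the lamb effect was past the unadjusted threshold and the fetal effect was not, yet the difference itself was not past it (limma, unadjusted p = 0.103, 0.159 and 0.178). KDR, a receptor of vascular endothelial growth factor, had 0.33 in lambs and -0.08 in fetuses (difference 0.42, 95% interval -0.10 to 0.93), with its 3 other probes at 0.40, 0.20 and 0.16. PPARG, the master regulator of fat cell formation, had 0.22 and -0.07, and LEP, leptin, 0.06 and -0.17. UCP1 had -0.20 and 0.08 and a difference of -0.28 with a wide 95% interval, -1.61 to 1.06; without Control lamb 1 it was -0.05.

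Genes were also read in 25 lists, each member by its difference and beside the 886 named genes as a whole, of which 409 were positive and 477 negative with a median of -0.01. The cytosolic ribosome list had 3 of 17 genes past the threshold upwards, against 7 of the 886 named genes, and none downwards. It had 14 positive and 3 negative differences and a median of 0.07. Over the 9 alternatives the call was lost in 4 for RPL4 and 2 for RPL34, whose sign reversed in 1 more. RPS25 had 0.17 with the probe used, -0.17 with its other bright probe, and 0.05 and 0.03 with dim ones. The cell cycle list had 1 of 10 upwards (PCNA), none downwards, 8 positive and a median of 0.08; CDK1, the mitotic kinase, was 0.20 and TYMS, thymidylate synthase, 0.17. All 7 genes of the T cell list had opposite signs in lambs and fetuses, against 415 of the 886 named genes. Their lamb effects were small, with a median of 0.08, against -0.12 in fetuses. Of the 7 differences 6 were positive, with a median of 0.20 and none past the threshold. CTLA4 was near background, and of the 6 with a signal above it 5 were positive. CD3E, a chain of the T cell receptor complex, was 6.92, 8.42 and 9.38 in Control fetuses, 7.08, 7.80 and 8.54 in CORT fetuses, 7.35, 7.88 and 8.56 in Control lambs and 7.67, 8.05 and 8.47 in CORT lambs, so that the groups overlapped widely. CD3D, a further chain, had 0.34, CD5 0.26 and CD247 0.20, and IL2RA, the interleukin-2 receptor alpha chain, -0.20. The summed level of 3 T cell markers ran from 8.29 to 10.02 in Control fetuses, 8.39 to 9.42 in CORT fetuses, 8.52 to 9.40 in Control lambs and 8.74 to 9.42 in CORT lambs, and its part in these values was not tested.

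Lists that leaned the other way held myeloid, detoxifying and mitochondrial genes. Of 20 macrophage and myeloid genes, 1 (C5aR) was past the threshold downwards and none upwards, and 17 were negative, with a median of -0.11. Only 15 of the 20 had a signal above background, and 13 of these were negative. Members included the lysosomal proteases CTSS at -0.26 and CTSB at -0.18. The 1 defining macrophage marker with a probe, CD14, had a difference of -0.08, with levels from 7.61 to 7.82 in Control fetuses, 7.55 to 7.99 in CORT fetuses, 7.66 to 8.20 in Control lambs and 7.80 to 8.48 in CORT lambs. Of 8 detoxification and antioxidant genes, ALDH1A1 was past the threshold downwards and none upwards, 7 were negative and the median was -0.22; 2 of the 8 were near background. In lambs alone 4 of the 8 were lower at the unadjusted threshold, namely ALDH1A1, GSTA1, SOD2 and UGT1A9, and in fetuses none was called. Over all named genes 25 of 886 were lower in lambs, and in fetuses 10 were lower and 7 higher. In fetuses UGT1A9 had -0.38 and SOD2 -0.05, while ALDH1A1 had 0.24 and GSTA1 0.16. Both ALDH1A1 and SOD2 are among the genes the study picked on the same lambs. GSTA1, a glutathione transferase, was 11.18, 11.72 and 12.84 in Control lambs and 9.62, 11.29 and 12.55 in CORT lambs, and its difference was -0.80 ± 0.43 (SE; unadjusted p = 0.0763). In oxidative phosphorylation none of 10 genes was called, 8 were negative and the median was -0.12.

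Among the insulin-like growth factor genes 1 of 10 (IGF2R) was past the threshold downwards, and the median was -0.09. The lists of fatty acid, triglyceride and cholesterol synthesis (10 genes, median -0.04) and of glycolysis and the citrate cycle (10 genes, median 0) each had 1 gene called, downwards, which were ME1 and HK1. The neutrophil granule list of 6 genes also had 1, LTF, and a median of 0.01. No gene was called in either direction among 12 stress-induced and immediate early genes, of which 9 were positive with a median of 0.14; the highest were FOS at 0.52 and HSP70.1 at 0.44, whose lamb effects were 0.52 and 0.58. Nor was any called among 22 endothelial and angiogenic genes (median 0.02), 17 of the extracellular matrix (-0.07), 24 cytokines, chemokines and receptors (-0.02), 12 of the interferon response (-0.08), 7 of brown adipocytes (0.01), 8 of lipid storage and uptake (0.04), 4 of fatty acid oxidation (-0.12) or 3 adipogenic regulators (0.26). The same held for 4 mesothelial and fibroblast genes (median -0.22), 5 of striated muscle (0.01), 3 of red cells (-0.04) and 12 plasma protein and hepatic genes (-0.02). ALB, serum albumin, had the largest difference of all probes, -2.23, and also a standard error of 1.92; its level ran from 6.83 to 14.37 across animals and the groups overlapped.

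**Figure D5:**
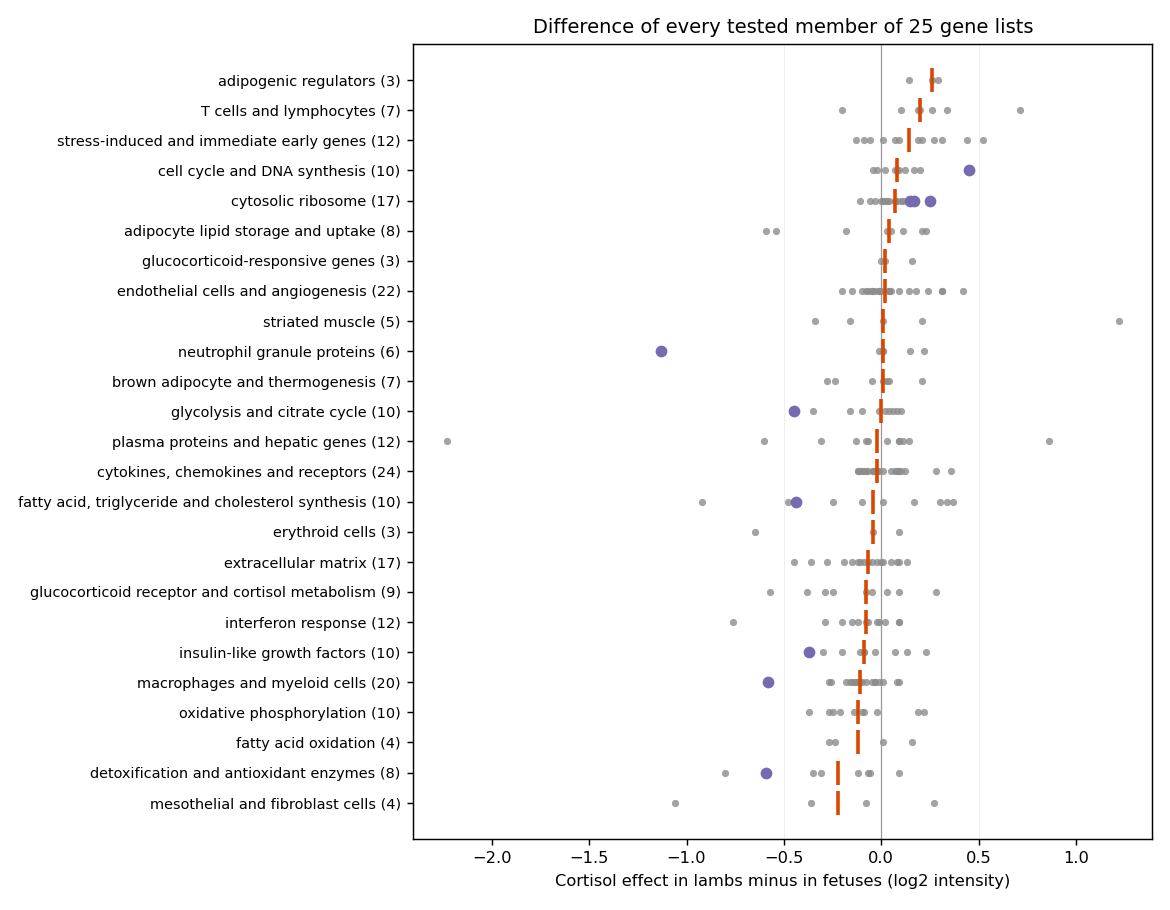
Cortisol effect in lambs minus in fetuses, in log2 intensity, for every tested member of the 25 gene lists, with the number of members in brackets. Grey points are genes, purple points those past an unadjusted p of 0.05 and orange bars the list medians; every median lies between -0.22 and 0.26 and purple points are few.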

How the data were processed

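EAT RNA of 30 sheep was hybridised to 1-colour Agilent sheep arrays of 15744 spots on 4 slides. The deposited scanner files, written by Agilent Feature Extraction 10.1.1.1 per the file headers, hold foreground and background intensity per spot. The deposited matrix of log2 values was used only as an alternative for the lambs, since its fetal columns did not follow the scanner values. Background was corrected by normexp (offset 50) and arrays were quantile normalized together in limma 3.58.1 (R 4.3.3), after the study's limma methods. Control spots were removed and spots with outlier flags left out; repeated spots were averaged. Probes were kept if at least 10% brighter than the 95th percentile of 77 negative control spots on at least 6 arrays. One limma fit of 4 groups gave the effects at each age, their difference and their average, with Benjamini-Hochberg adjustment over 13096 probes; it was tested on simulated data. All p are two-sided. Exact permutation tests moved treatment labels within age (11440 and 3003 splits).

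Gene names came from the scanner files and, through accessions, from a RefSeq table (assembly ARS-UI_Ramb_v3.0), together for 1656 of 15008 probes, with 1 probe, the brightest, per gene. Genes are named if among the 10 smallest p per direction for the difference or 5 for the average, if past unadjusted p 0.05 at both ages, if among 26 fixed genes, or as up to 4 examples per list; the first 3 rules required a signal well above background on 50% or more of the arrays of each group. One gene that met these rules is not reported here. A few genes and all unnamed probes were named after their values were seen. The gene lists, rules and alternatives were chosen with earlier results of these data known. Alternatives changed the signal, normalization, filter, blocks, array weights and animals. The number of arrays limits the precision.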

Additional observations from a re-analysis of the deposited data

Results flagged for a closer look

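ALDH1A1 stood out because all 9 CORT lambs were below and all 6 CORT fetuses above their Control mean, with a difference of -0.59 between the group effects.

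Single animals lay far from the rest of their group in 14 of 172 groups searched with Dixon's gap ratio, which by chance flags about 1 group in 20. Control lamb 1 was low for PCNA (8.64, the nearest animal 9.66; gap 0.745 of the group's range) and high for NPPC (7.95 against 7.16; 0.658). CORT lamb 1 was low for ME1 (6.88 against 7.73; 0.664) and GPD2 (6.35 against 6.81; 0.517). CORT fetus 5 was low for V15 (0.667) and EP4C (0.744) and high for FLT1 (8.67 against 7.73; 0.701). CORT fetus 4 was low for LTF (7.15 against 7.57; 0.646) and high for NPPC (6.95 against 6.77; 0.643). For GLRX, CORT fetus 6 was high (9.59 against 8.22; 0.649), as was CORT lamb 9 (9.78 against 8.69; 0.505). The others were Control fetus 1, low for PECAM1 (12.01 against 12.36; 0.648), Control lamb 6, low for PPARG (13.25 against 14.07; 0.667), and CORT lamb 4, high for ACLY (11.71 against 10.23; 0.538).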

How the results depend on the processing

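The difference between ages passed no adjusted threshold under any alternative or with any animal left out. LTF (-1.71 to -1.01 over the alternatives), ALDH1A1 (-0.66 to -0.58) and HK1 (-0.54 to -0.38) stayed past the unadjusted threshold in all of them and without any animal. With 1 animal left out, the difference lost its call in 20 of 30 fits for V15, 19 for C5aR, 15 for CHI3L1, 9 for MET, 7 for RPL34, 3 for PCNA, 2 each for RPL4 and ME1 (-0.33 without CORT lamb 1) and 1 for IGF2R. Over the alternatives MET lay between 0.20 and 0.56 and V15 between 0.24 and 0.89. The call was lost in 4 of 9 alternatives each for V15, RPL4 and C5aR, and in 3 for MET. It was lost in 2 each for CHI3L1 and RPL34 and in 1 each for SLC66A2, IGF2R, NPPC and ME1. PCNA kept it in all 9. The share of probes with opposite signs stayed between 46.4% and 49.6% over the alternatives. The other counts moved, as follows; the causes were not tested. With array weights the difference passed 291 probes higher and 239 lower, lambs 495 higher, fetuses 180 and 226, the average 342 higher and 30 probes at both ages, and 2 lamb probes passed adjustment (A_70_P009606, -0.46, and A_70_P048347, 0.59; adjusted p = 0.0136 for each). Cyclic loess gave 249 lower for the difference, 311 higher and 300 lower in fetuses, 361 higher for the average, and 29 probes at both ages, 22 in the same direction; the RPL34 difference was then -0.06. With slide as a block 24 probes passed at both ages, 20 in the same direction, and the SLIRP difference was 0.01. With the replicate number as a block, the difference passed 214 lower, fetuses 217 and 246, and 28 probes at both ages, 22 in the same direction; the SLIRP difference was 0.06 and that of NR3C1 0.07. Same-numbered animals shared only a number: the median correlation of their deviations was 0.047 over 40 pairs, against -0.011 over 295 others. Of the probes passing at both ages, 7 of 14 had the same direction with the scanner's processed signal and 8 of 10 with the 75th percentile scaling, against 13 of 15. The deposited lamb values gave 190 higher in lambs.

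Leaving out 1 animal at a time moved the difference from 97 to 232 probes higher and from 92 to 198 lower. Both lowest counts came without Control lamb 1 and both highest without CORT lamb 1; without Control lamb 6 it was 193 lower, and without Control fetus 2 221 higher. Lambs ranged over 197 to 474 higher and 212 to 421 lower, with 0 to 1 past adjustment (A_70_P009606 without Control lamb 1, adjusted p = 0.0393). Fetuses ranged over 75 to 143 higher and 70 to 225 lower, and the average over 169 to 270 and 167 to 344. Probes passing at both ages ranged over 9 to 24 and those in the same direction over 7 to 20. The SLIRP difference then lay between -0.06 and 0.04 and that of NR3C1 between -0.09 and 0.01.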
